A study of Mus musculus with 4 samples.

Results

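Gas5 and the genes named Snhg (small nucleolar RNA host genes) were followed in mouse brain with and without the RNA editing enzyme ADAR2, together with the small nucleolar RNAs (snoRNAs) that lie inside them. The hosts were all rows of the array table whose gene symbol was Gas5 or Snhg followed by a number. This gave 13 of 33793 transcript clusters, from 12 genes: Gas5, Snhg1 and Snhg3 to Snhg12. A transcript cluster pools the probes that were designed for one transcribed locus, and Snhg11 had 2 of them. No host cluster fell in the chromosome 7 window from which copies of Snhg11 were to be left out. Of 1327 snoRNA clusters on the array, 15 lay wholly within the span of a host cluster on the same strand, in 10 of the hosts.

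The samples were 4 arrays of whole-brain total RNA from adult female 129SV mice, 2 from wild-type and 2 from Adar2-/- brains. Per the study's methods, mice of both genotypes also carried a pre-edited Gria2 allele (Gria2 R/R), which rescues Adar2-/- mice from early death, and they were siblings from crosses of heterozygous parents. The knockout is constitutive, so every cell of the brain lacks the enzyme throughout life. The question put to these arrays was which transcripts differ in level when ADAR2 is absent, and here it is put to the hosts, to their snoRNAs, and to the difference between the 2.

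A snoRNA host gene is transcribed and spliced like other genes, but its stable product is usually cut out of an intron. The spliced exons of Gas5 and most Snhg genes encode no long protein, and where they pass through the ribosome they are typically removed by nonsense-mediated decay. The intronic snoRNAs belong to distinct classes: C/D box RNAs guide methylation of ribosomal and spliceosomal RNA, H/ACA box RNAs guide the isomerisation of uridine to pseudouridine, and scaRNAs do similar work on spliceosomal RNA in the Cajal body. Because exon and intron products part after splicing, a host and its snoRNA can accumulate to different extents.

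Many host genes of this kind begin transcription at a terminal oligopyrimidine (TOP) start, a C followed by an unbroken run of C and T. To show how the loci described here start, 30 bases around the RefSeq transcription start are printed from the promoter table (GRCm38.p6), with 15 bases before the start and 15 from it on, read 5′ to 3′ on the gene's strand. Capitals mark a run of a C followed by at least 4 bases that are C or T and that begins no more than 5 bases before or after the start. The first 4 are the hosts whose snoRNAs differed most between genotypes, followed by Gas5, Snhg8 and, as a host without such a run, Snhg1.
Snhg12, chr4:132308663-132308692, plus strand: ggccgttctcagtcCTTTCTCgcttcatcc
Snhg7, chr2:26640230-26640259, minus strand: gtggagatgctcggcCTCTCggcagccatg
Snhg10, chr12:105032265-105032294, minus strand: cttccggttcCTTTTgcggtgattgctacg
Snhg3, chr4:132353672-132353701, minus strand: tagtcgaccacgcctgaCTTCCgggcgtta
Gas5, chr1:161035151-161035180, plus strand: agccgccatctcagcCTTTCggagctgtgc
Snhg8, chr3:123508322-123508351, minus strand: gcaccgttcagaagtCTCTTTggctgcgat
Snhg1, chr19:8723472-8723501, plus strand: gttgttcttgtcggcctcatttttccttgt

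Promoter entries were read for 10 of the 12 genes. Chromosome 18 was left out for the hosts, which removes Snhg4, and no entry was read for Snhg6. The shares over all genes and over protein-coding genes include chromosome 18. Of the 10 genes, 7 (70.0%) had such a run near a start, against 21.2% of the 27025 genes in the table, counted on the gene's strand only. The 7 are the 6 shown with capitals and Snhg9, and Gas5 has a further annotated start without one. The run begins at the start in Gas5, Snhg7 and Snhg8, 1 base before it in Snhg12 and 2 bases after it in Snhg3. In Snhg10 and Snhg9 it begins 5 bases before the start and is 5 bases long, so it ends before the first transcribed base. There it is the end of a longer stretch of C and T. Both shares therefore count runs near a start, not TOP starts alone. Snhg1, Snhg5 and Snhg11 had none that begins within 5 bases of the start, and in Snhg5 such letters lie further on. By starts the shares were 63.6% of 11 and 18.3% of 32851. Among 34 protein-coding genes known to carry snoRNAs in their introns, 7 (20.6%) had a run, and among 5 Snhg hosts that the array lists under older symbols 1 (20.0%) did.

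All values are log2 signals as deposited, and a difference of 1 is a 2-fold change. The targeted gene Adarb1 had log2 signals of 10.50 and 10.45 in wild-type and 9.16 and 8.96 in Adar2-/- replicates 1 and 2, in keeping with the labels. Y-linked genes, which female brain lacks, gave log2 signals from 3.49 to 4.40, and 22.0% of all clusters lay at or below 4.40. With 4 such clusters this is a rough guide to where a signal no longer reports RNA, not a cutoff for every cluster. Markers of brain gave a summed log2 signal of 14.9 to 15 on every array. Pituitary markers were not even across arrays, with summed log2 signals of 8.78 and 8.40 in wild type and 11.2 and 10.5 in Adar2-/- brains, and 3 of their 9 clusters had an unadjusted p below 0.05. Salivary gland markers stood at 13 in Adar2-/- replicate 1 and between 8.42 and 8.58 on the other arrays. The sums ran from 10.1 to 10.7 for olfactory bulb, 12.9 to 13.3 for choroid plexus, 12.2 to 12.9 for blood and 8.40 to 8.76 for cell cycle markers, and stood at 13.6 on every array for cerebellum. A sum is carried by its brightest clusters, as by Pcp4 for cerebellum, at 12.88 to 12.94. The dimmer Pcp2 read 8.15 and 8.43 in wild type and 8.20 and 7.98 in Adar2-/- brains. Among the markers other than pituitary, 1 of 6 olfactory bulb clusters and 1 of 3 blood clusters were lower and 1 of 6 cell cycle clusters was higher at an unadjusted p below 0.05. Of all clusters 3.64% were higher and 2.31% lower at this p. The olfactory bulb gene Cdhr1 had log2 signals of 7.80 and 7.87 in wild type and 7.44 and 6.66 in Adar2-/- brains, and the median over olfactory bulb clusters was lowest in Adar2-/- replicate 2, at 6.80 against 7.60 to 7.89 elsewhere. The part of these markers in the results was not tested. In whole brain, fewer cells of a type and less RNA per cell cannot be told apart.

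No host cluster passed the adjusted threshold of 0.05 (limma, Benjamini-Hochberg over all clusters; lowest adjusted p 0.834), and 0.0% of all clusters did. At an unadjusted limma p below 0.05, 1 of the 13 host clusters was higher in Adar2-/- brain and none was lower, and 5.95% of all clusters reached this p in either direction. The host differences, Adar2-/- minus wild type, ran from -0.40 for Snhg1 to 0.54 for Gas5, with a median of 0.07 against 0.01 over all clusters. Host signals of the 2 wild-type arrays differed by a median of 0.19 and those of the 2 Adar2-/- arrays by 0.12, so most genotype differences were of the size of the gap between replicates. Both Adar2-/- arrays lay above both wild-type arrays for 4 host clusters and below them for 3, and the groups overlapped for the other 6. Over all clusters 17.7% lay above and 16.5% below. The smallest two-sided p of an exact permutation test on 2 and 2 arrays is 0.333.

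**Figure D1:**
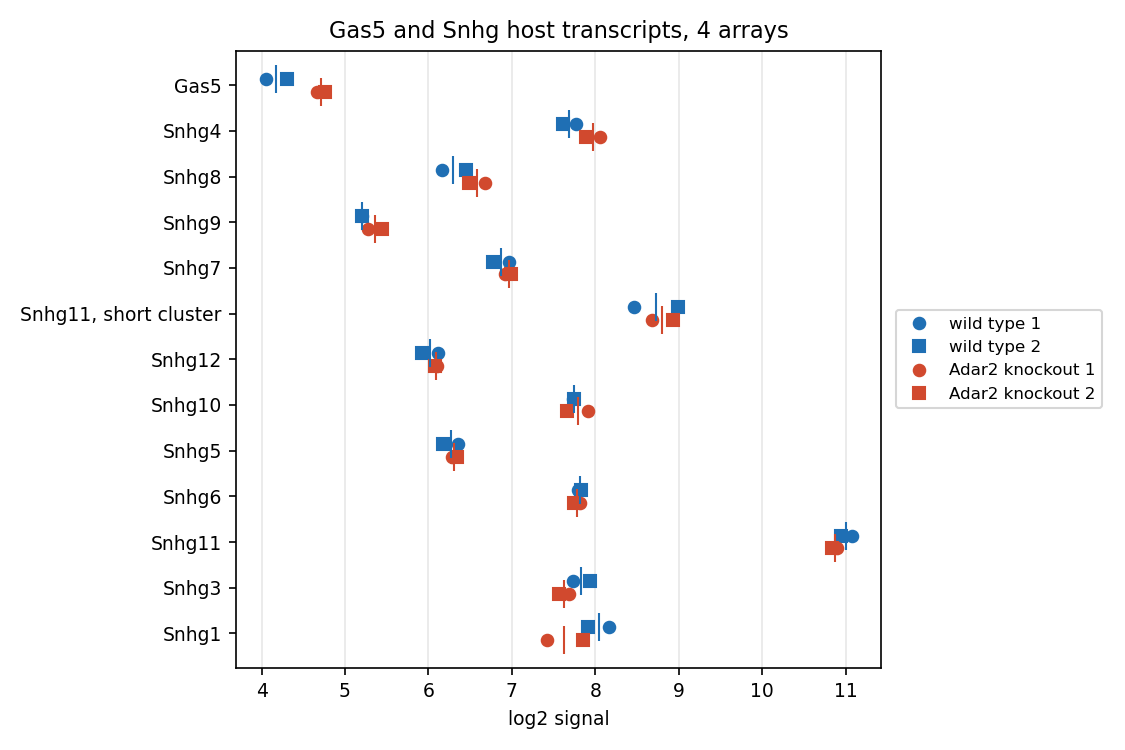
Log2 signal of the 13 host clusters (rows, ordered by genotype difference) on each of the 4 arrays, wild type in blue and Adar2-/- in red, with circles for replicate 1, squares for replicate 2 and a vertical line at each group's mean. Gas5 at the top, from 4.05 to 4.76, and Snhg1 at the bottom, from 7.42 to 8.16, have the largest differences between group means, 0.54 and -0.40, and the other hosts differ by at most 0.28.

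Gas5, first found as a transcript that accumulates in growth-arrested cells, hosts a series of C/D box snoRNAs. Its cluster of 30 probes lies on the plus strand at chr1:161034422-161038539, and in wild-type replicates 1 and 2 its log2 signal was 4.05 and 4.30, and in Adar2-/- replicates 1 and 2 it was 4.67 and 4.76. The groups did not overlap, and the difference of 0.54 was larger than the gap between replicates of either genotype. It corresponds to 1.45-fold (SE 0.127 on the log2 scale, 95% interval 0.23 to 0.85, limma p 0.00591, adjusted p 0.834). Both wild-type values lie within the range of the Y-linked genes, so the size of the fold is not fixed. Without Adar2-/- replicate 2 the difference was 0.49 with an unadjusted limma p of 0.0592.

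The genes whose 4 values ran most like those of Gas5 were sought among 15450 clusters with a symbol and a mean signal at or above the median cluster. Likeness was the distance between the 4 array values, each profile centred on its own mean. The closest were LOC100862044, at a distance of 0.0332, then Dhrs13, a short-chain dehydrogenase, at 0.114, and Nme1, a nucleoside diphosphate kinase, at 0.121. Their log2 differences were 0.55, 0.43 and 0.48. With 4 arrays and so many candidates such closeness is a description and carries no test.

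Snhg12 carries 4 nested snoRNAs, more than any other host here. Its cluster (chr4:132308678-132311024, plus strand, 26 probes) had log2 signals of 6.11 and 5.92 in wild type and 6.10 and 6.08 in Adar2-/- brains. The Adar2-/- values lay between those of the wild-type pair. The means were 6.02 ± 0.134 and 6.09 ± 0.0141 (SD, n = 2 each), a difference of 0.07 (SE 0.115, 95% interval -0.21 to 0.36, limma p 0.541).

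Among the other hosts of H/ACA snoRNAs and scaRNAs, Snhg4 had the largest difference. Snhg4 stood at 7.77 and 7.61 in wild type and 8.06 and 7.89 in Adar2-/- brains, without overlap, a difference of 0.28 (SE 0.122, limma p 0.0595). This p was between 0.0379 and 0.0439 under 5 other settings, among them the replicate number as a block, at 0.0435. It was 0.0992 with median centring and 0.135 with the pooled-variance test, and between 0.0673 and 0.227 without single arrays, where the difference ran from 0.20 to 0.37. Snhg9 was measured at 5.20 on both wild-type arrays and at 5.28 and 5.44 on the Adar2-/- arrays, a difference of 0.16 (limma p 0.202). For Snhg9 the range without single arrays was 0.08 to 0.24. Its cluster overlaps Rps2, a ribosomal protein gene, on the opposite strand.

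Snhg7, at 6.96 and 6.77 against 6.92 and 6.99, and Snhg10, at 7.73 and 7.74 against 7.91 and 7.66, had overlapping groups and differences of 0.09 and 0.05. Snhg3 was lower in Adar2-/- brain by value, at 7.73 and 7.93 against 7.69 and 7.57, a difference of -0.20 (SE 0.122, limma p 0.154). Its difference ran from -0.30 to -0.10 as single arrays were left out. The Snhg3 cluster runs to 132348014 on chromosome 4 and so into Rcc1, the exchange factor for the GTPase Ran, on the same strand, and RNA of Rcc1 and of Snhg3 cannot be told apart in the shared stretch.

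Snhg1, the host of a set of C/D box snoRNAs, had the lowest difference of all hosts. Its log2 signals were 8.16 and 7.91 in wild type and 7.42 and 7.85 in Adar2-/- brains. The groups did not overlap, but the 2 Adar2-/- arrays were 0.43 apart, and the difference of -0.40 (SE 0.178, 95% interval -0.84 to 0.04) had a limma p of 0.0667. It was -0.61 without Adar2-/- replicate 2, with a limma p of 0.0352, and -0.18 at the other end of the range from leaving out single arrays. Snhg6, the host of Snord87, stood between 7.74 and 7.83 on all 4 arrays, a difference of -0.03.

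Snhg5 and Snhg8 had no nested snoRNA by the rule used. Snhg5 stayed between 6.17 and 6.36 with overlapping groups and a difference of 0.04. Snhg8 was at 6.16 and 6.45 in wild type and 6.68 and 6.49 in Adar2-/- brains, a difference of 0.28 (SE 0.143, limma p 0.100), and its lower Adar2-/- value was just above the higher wild-type one. As single arrays were left out its difference ran from 0.14 to 0.42.

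Snhg11 is known as a neuronal host gene. Its long cluster (chr2:158375638-158386145, plus strand) read 11.07 and 10.94 in wild type and 10.89 and 10.84 in Adar2-/- brains, without overlap, a difference of -0.14 (SE 0.109, limma p 0.247). That difference ran from -0.20 to -0.07 without single arrays. A second Snhg11 cluster covers 133 bases, is annotated as a retained intron, and read 8.46, 8.99, 8.68 and 8.93 in the same order, with full overlap and a difference of 0.08.

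The nested snoRNAs were described in the same way. Of the 15 nested clusters, 12 were higher in Adar2-/- brain by value and 3 lower, with a median difference of 0.41, against 0.09 over all 1327 snoRNA clusters. The comparison set is dim, with a median log2 signal of 4.49 over all snoRNA clusters and of 4.17, within the Y-linked range, over the 1187 that carry no class name, beside 9.27 for the nested clusters. At an unadjusted limma p below 0.05, 8 nested clusters were higher and none lower. Of all snoRNA clusters 11.4% were higher and 2.26% lower at this p, and of all clusters 3.64% were higher. None passed the adjusted threshold, the lowest adjusted p being 0.770. Both Adar2-/- arrays lay above both wild-type arrays for 8 nested clusters, against 26.7% of all snoRNA clusters. The count of 8 was 4 without wild-type replicate 1 and 5 without Adar2-/- replicate 1, and Snora16a, Snora17, Scarna13 and Snora73a were the 4 that kept a limma p below 0.05 without each array in turn. The pooled-variance test, which estimates each cluster's spread from its own 4 arrays alone, left 2 of the 8, Snora16a and Snora73a. The lost calls were those of Snora17 (p 0.0540 by that test), Scarna13 (0.0634), Snora43, Snora73b, Snora74a and the unnamed RNA (0.0652 to 0.137). The probes of 9 nested clusters can cross-hybridize with other sequences per the file, and 4 of the 8 were among the other 6.

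**Figure D2:**
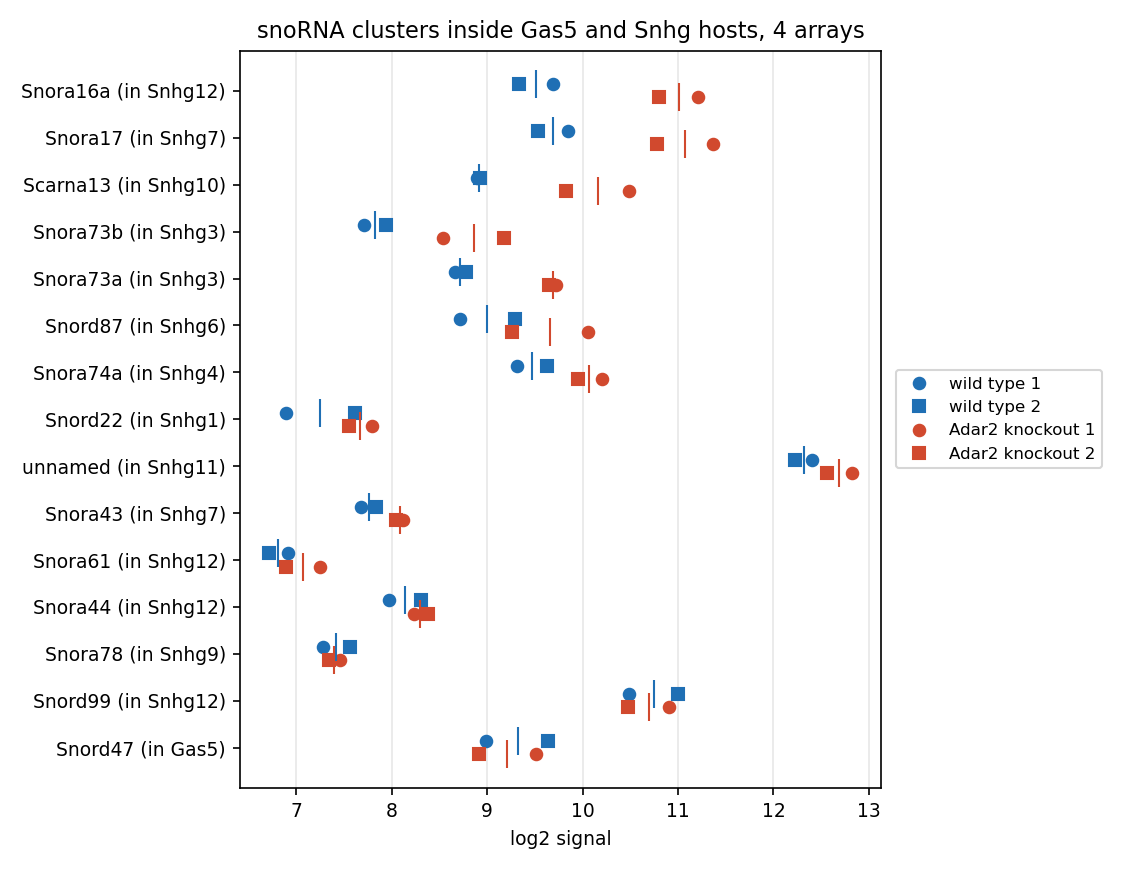
Log2 signal of the 15 nested snoRNA clusters on each of the 4 arrays, with the host in brackets, ordered by genotype difference, and with colours, symbols and mean lines as for the hosts. The upper 5 rows, from Snora16a to Snora73a, have both Adar2-/- values clear of both wild-type values and mean differences of 0.96 to 1.50, and Snord99 and Snord47 at the bottom overlap.

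Snora16a is an H/ACA snoRNA of Snhg12 and had the largest difference among the nested clusters. It lies at chr4:132309465-132309600 on the plus strand, and 20 probes measured it. Log2 signals were 9.69 and 9.33 in wild type and 11.21 and 10.80 in Adar2-/- brains, so the lower Adar2-/- value was well above the higher wild-type one. The means were 9.51 ± 0.255 and 11.01 ± 0.290 (SD, n = 2 each), a 2.82-fold difference (log2 1.50, SE 0.189, 95% interval 1.03 to 1.96, limma p 0.000260, adjusted p 0.800). The study's list of altered transcripts was drawn from these same arrays and names Snora16a, which is therefore not independent evidence of a direction.

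The other 3 snoRNAs of Snhg12 did not share this size of difference. Snora44, an H/ACA RNA, read 7.97 and 8.31 in wild type and 8.23 and 8.38 in Adar2-/- brains, with overlap and a difference of 0.17. Snora61, also H/ACA, read 6.91 and 6.72 against 7.25 and 6.89, a difference of 0.26 (SE 0.156, limma p 0.156). It was 0.07 without Adar2-/- replicate 1 and 0.43 without Adar2-/- replicate 2. Snord99, a C/D box RNA at the 3′ end of the host, read 10.49 and 11.00 against 10.91 and 10.48, with the wild-type range enclosing Adar2-/- replicate 1 and a difference of -0.05. The differences between snoRNAs of the same host were not tested. Snora44, Snora61 and Snord99 have probes that can cross-hybridize, and Snora16a has none marked so.

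Snhg7 carries the H/ACA RNAs Snora17 and Snora43. Snora17, at chr2:26639190-26639321 on the minus strand, read 9.85 and 9.53 in wild type and 11.37 and 10.78 in Adar2-/- brains, without overlap. The difference was 1.39, or 2.61-fold (SE 0.221, 95% interval 0.84 to 1.93, limma p 0.000887, adjusted p 0.829). Another Snora17 cluster, on chromosome 4 and outside these hosts, read 8.56 and 8.59 against 10.10 and 9.67, a difference of 1.31, and since both can cross-hybridize they may read the same RNA. The Snora17 on the study's list of altered transcripts has the fold change of that other cluster, not of the nested one. Snora43 read 7.68 and 7.84 against 8.12 and 8.05, a smaller difference of 0.33 (SE 0.113, limma p 0.0294) with groups that did not overlap.

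Snhg10 carries Scarna13, a scaRNA, at chr12:105031075-105031349 on the minus strand. Its wild-type arrays were nearly equal at 8.89 and 8.93, and the Adar2-/- arrays read 10.49 and 9.83. The Adar2-/- gap of 0.66 was wider than the wild-type gap, and both values were above both wild-type values. The difference was 1.25, or 2.38-fold (SE 0.219, 95% interval 0.71 to 1.79, limma p 0.00141, adjusted p 0.834).

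**Figure D3:**
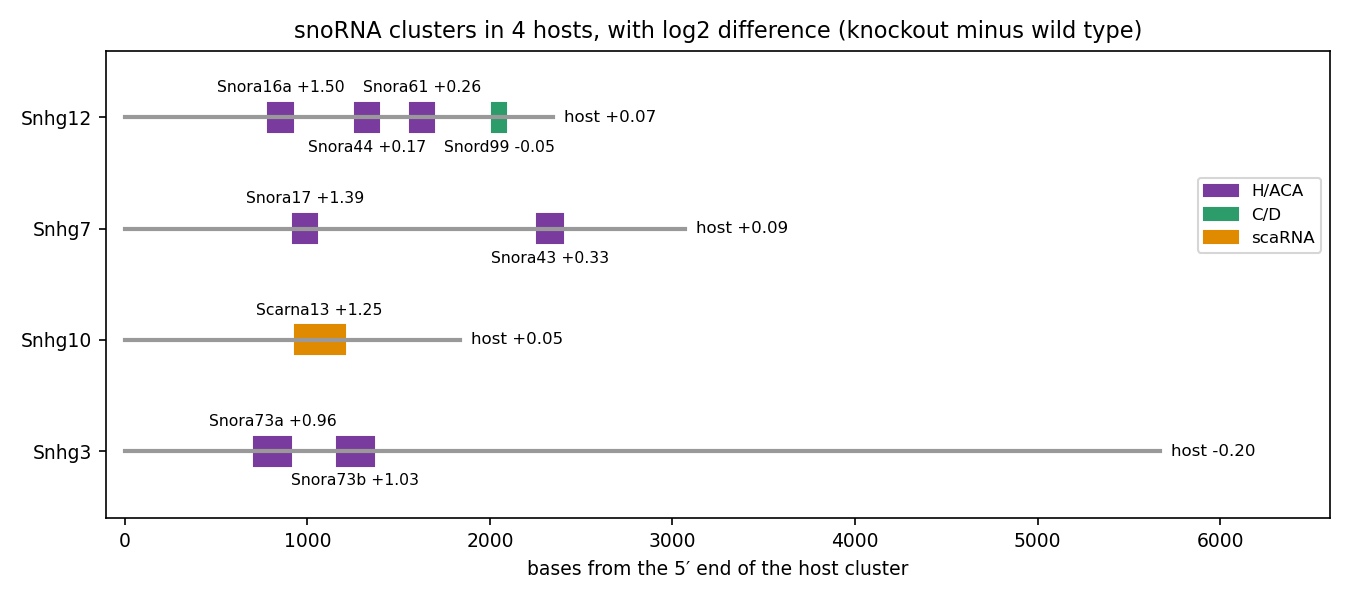
Position of each nested snoRNA cluster along 4 hosts, in bases from the 5′ end of the host cluster, with boxes coloured by class and the log2 difference (Adar2-/- minus wild type) printed beside each box and at the host's 3′ end. In Snhg12 the first snoRNA, Snora16a at 1.50, differs from the 3 that follow, which lie between -0.05 and 0.26, and the 4 hosts lie between -0.20 and 0.09.

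Snhg3 carries Snora73a and Snora73b, copies of the H/ACA RNA that takes part in cleavage of the ribosomal RNA precursor. Snora73a (chr4:132352775-132352979, minus strand) read 8.66 and 8.78 in wild type and 9.72 and 9.65 in Adar2-/- brains. Replicates were close together in both groups, and Snora73a had the lowest p of the nested clusters, with a difference of 0.96, or 1.95-fold (SE 0.109, limma p 0.000138, adjusted p 0.770). Snora73b (chr4:132352322-132352526) read 7.71 and 7.94 against 8.54 and 9.18, a difference of 1.03 (SE 0.224, limma p 0.00394). Its Adar2-/- values were 0.64 apart, and its p was 0.0860 without wild-type replicate 1 and 0.0526 without wild-type replicate 2. Probes of both can cross-hybridize, and since the RNAs are close copies they are not independent measurements.

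Snora74a, the H/ACA RNA of Snhg4, read 9.31 and 9.63 in wild type and 10.20 and 9.95 in Adar2-/- brains. The groups did not overlap, and the difference was 0.60, or 1.52-fold (SE 0.156, limma p 0.00881). An unnamed snoRNA cluster inside Snhg11 (chr2:158379534-158379666) read 12.40 and 12.23 against 12.82 and 12.56, a difference of 0.38 (SE 0.136, limma p 0.0342). Snora78 of Snhg9 read 7.28 and 7.56 against 7.46 and 7.34, with the Adar2-/- values inside the wild-type pair and a difference of -0.02. The calls of Snora74a, the unnamed RNA and Snora43 were lost without wild-type replicate 1, at limma p of 0.0800, 0.0787 and 0.108, and without Adar2-/- replicate 1, at 0.0922, 0.164 and 0.113. The unnamed RNA also lost its call without wild-type replicate 2 (limma p 0.191) and Snora43 without Adar2-/- replicate 2 (limma p 0.0716).

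The 4 nested C/D box RNAs gave no unadjusted limma p below 0.05, and their groups all overlapped, while 18.9% of all C/D clusters had groups that did not. Snord87 in Snhg6 had the largest difference, 0.66 (SE 0.306, limma p 0.0775), with 8.72 and 9.29 in wild type and 10.06 and 9.26 in Adar2-/- brains. It was 0.37 without wild-type replicate 1, 0.26 without Adar2-/- replicate 1 and 1.05 without Adar2-/- replicate 2 (limma p 0.0459). Snord22 in Snhg1 read 6.89 and 7.62 against 7.79 and 7.55, a difference of 0.41 that ranged from 0.05 to 0.78 as single arrays were left out, the highest without wild-type replicate 2 (limma p 0.0201). Snord47 in Gas5 read 8.99 and 9.64 against 9.51 and 8.92, a difference of -0.10 (SE 0.277, limma p 0.731). The sign of Snord47 was not stable, with 0.23 without wild-type replicate 2 and 0.20 without Adar2-/- replicate 2.

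By class, the nested H/ACA RNAs stood further up than the nested C/D RNAs, and a like order was seen over the whole array. Of 9 nested H/ACA clusters 6 were higher at an unadjusted limma p below 0.05, with a median difference of 0.60, and over all 36 H/ACA clusters 9 were (25.0%), with a median of 0.30. Nested clusters thus made up 6 of the 9 H/ACA clusters that were higher at this p, and 1 further H/ACA cluster was lower. All 95 C/D clusters had a median of -0.04 and 6.32% were higher at this p, beside a median of 0.18 for the 4 nested ones. Scarna13 was 1 of 4 called among 9 scaRNA clusters (44.4%). The difference between classes was not tested.

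To ask whether a snoRNA and the transcript that carries it changed unequally, the host's log2 signal was subtracted from the snoRNA's on each array, and the genotypes were compared on this difference in a limma fit over all 367 snoRNA and host pairs on the array. Only the change of the difference is read, since the level of one probe group cannot be set against another's. Of the 15 pairs of Gas5 and Snhg hosts, 12 moved towards the snoRNA in Adar2-/- brain and 3 towards the host, with a median of 0.52, against 0.13 over the 352 pairs of other hosts. The sets differ in class: 9 of the 15 are H/ACA, and 261 of the 352 carry no class name (median 0.12). The medians here and in other hosts were 0.32 and 0.34 for H/ACA and 0.28 and 0.07 for C/D pairs. For scaRNAs they were 1.20, from 1 pair, and 0.53. An adjusted p below 0.05 was reached by 1 of the 15, Snora16a against Snhg12, and by 0.545% of all pairs. At an unadjusted p below 0.05 the snoRNA gained on its host in 6 of the 15, and in 5.99% of all pairs.

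**Figure D4:**
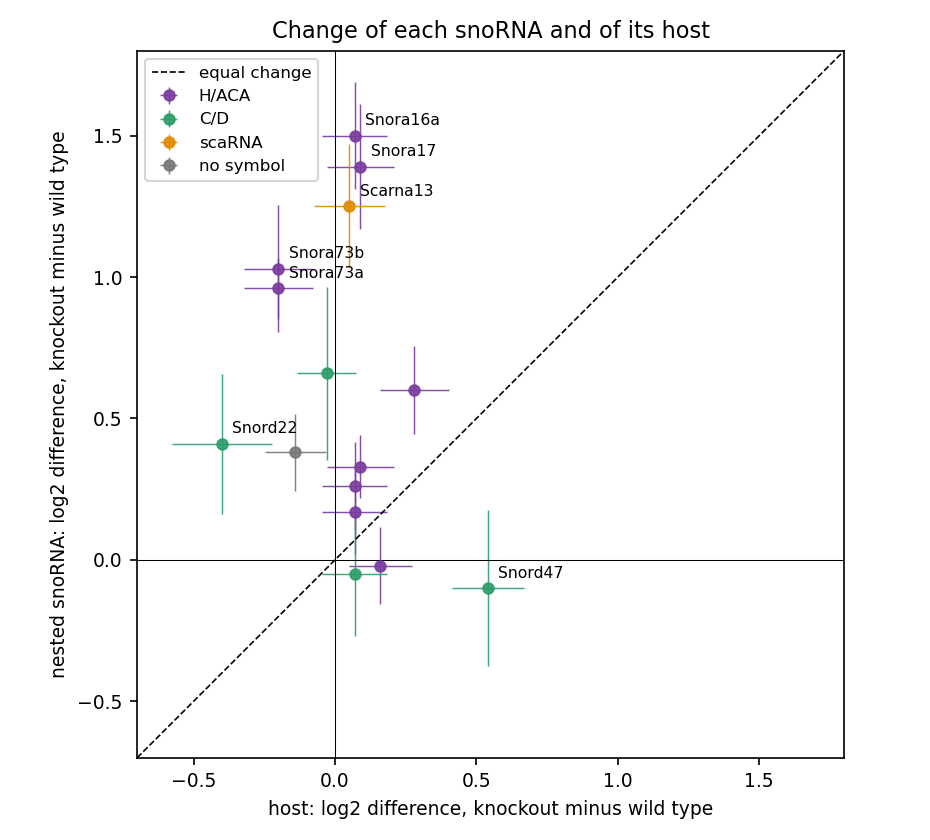
Log2 difference (Adar2-/- minus wild type) of each nested snoRNA on the vertical axis against that of its host on the horizontal axis, coloured by snoRNA class, with bars of 1 SE from the limma fit and a dashed line of equal change. Snora16a, Snora17, Scarna13, Snora73a and Snora73b lie near or above 1 on the vertical axis with hosts between -0.20 and 0.09, and Snord47 lies furthest below the line with Gas5 at 0.54.

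Snora16a minus Snhg12 was 3.58 and 3.41 on the wild-type arrays and 5.11 and 4.72 on the Adar2-/- arrays. The groups were far apart relative to their spread, and the change was 1.42 (SE 0.272, 95% interval 0.83 to 2.01, limma p 0.000229, adjusted p 0.0421). The adjusted call was lost without each of the arrays in turn and with the replicate number as a block, while the change itself stayed between 1.23 and 1.61 as single arrays were left out. The same pair change was 1.29 for Snora17 and Snhg7 (SE 0.292), 1.20 for Scarna13 and Snhg10 (SE 0.271) and 1.17 for Snora73a and Snhg3 (SE 0.258), each at an adjusted p of 0.0530. Snora73b and Snhg3 followed at 1.24 (SE 0.301, adjusted p 0.0810 in the limma fit over pairs).

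Snord22 minus Snhg1 changed by 0.81 (SE 0.355, limma p 0.0411), but the groups overlapped, with -1.27 and -0.29 in wild type and 0.37 and -0.30 in Adar2-/- brains. This change was 0.33 without wild-type replicate 1 (limma p 0.450), 1.30 without wild-type replicate 2 (limma p 0.0342), 0.48 without Adar2-/- replicate 1 (limma p 0.383) and 1.15 without Adar2-/- replicate 2 (limma p 0.0746). With the replicate number as a block its limma p was 0.137. Snora74a gained only 0.32 on Snhg4 (SE 0.276, limma p 0.270), and both the snoRNA and the host had higher values in Adar2-/- brain. Without wild-type replicate 1 this change was 0.08 and without wild-type replicate 2 it was 0.56. The pair of Snord47 and Gas5 had a change of -0.64 (SE 0.305, 95% interval -1.31 to 0.03, limma p 0.0579), from 4.94 and 5.34 in wild type to 4.84 and 4.16. Its size is not fixed, since Gas5 in wild type was at the level of the Y-linked genes, and it was -0.98 without Adar2-/- replicate 1 (limma p 0.0374) and -0.30 without Adar2-/- replicate 2. Both Adar2-/- values were below both wild-type values, as in no other pair of these hosts and in 9.81% of all pairs. Of 27 H/ACA pairs in other hosts, 24 also moved towards the snoRNA, with a median of 0.34 beside 0.32 for the 9 nested here.

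Array by array, the median log2 signal of the 15 nested clusters was 8.72 and 8.93 in wild type and 9.72 and 9.26 in Adar2-/- brains. Adar2-/- replicate 1 gave the higher value of its pair for Snora16a, Snora17, Scarna13, Snora73a and Snora74a, and Adar2-/- replicate 2 for Snora73b. The pituitary marker sum was also highest in Adar2-/- replicate 1 and lowest in wild type, and its part in the snoRNA values was not tested. The salivary marker sum stood apart in Adar2-/- replicate 1, and without that array 5 of the 8 nested calls were made, with the calls of Snora74a, Snora43 and the unnamed RNA lost.

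Genes that act on hosts and snoRNAs were read from the same fit. Of 13 clusters of nonsense-mediated decay factors, which clear spliced host transcripts, 1 was higher at an unadjusted limma p below 0.05 and none lower, where 3.64% of all clusters were higher. It was Rbm8a, a part of the exon junction complex, at 0.29 (limma p 0.0307). The median was -0.06, and Upf1, the central helicase, differed by 0.07. Of 15 clusters of snoRNP core and assembly proteins, which bind and stabilise snoRNAs, 3 were lower and none higher, and 2.31% of all clusters were lower at this p. They included Naf1, an H/ACA assembly factor, at -0.39 (limma p 0.00973), and the helicase Ruvbl1 at -0.32 (limma p 0.0421). The third was a cluster of 70 bases that carries the symbol of Nop56, a C/D core protein whose gene also hosts snoRNAs, at -0.65 (limma p 0.00473). Its signals of 4.64 and 4.58 in wild type and 4.14 and 3.79 in Adar2-/- brains were near the level of the Y-linked genes, and the Nop56 cluster of 4902 bases differed by 0.03. Dkc1, the pseudouridine synthase of H/ACA particles, differed by 0.04.

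Protein-coding genes that carry snoRNAs gave 99 clusters from 43 of 45 listed genes. Of these 5 were higher and 1 lower at an unadjusted limma p below 0.05, where 3.64% and 2.31% of all clusters were, and the median difference was 0.03. Of the 99 clusters 26 cover at most 200 bases, a limit chosen after seeing the data, and such short clusters made up 4 of the 6. Of the short clusters that carry the symbol of Taf1d, a subunit of a factor for ribosomal RNA transcription, 3 were higher, at 0.98, 0.94 and 0.48, and the others ran from -0.33 to 0.12. The cluster at 0.98 can cross-hybridize. That at 0.48 read 3.65 and 4.05 in wild type and 4.53 and 4.14 in Adar2-/- brains, near the level of the Y-linked genes. The Taf1d cluster of 10784 bases differed by 0.11 (limma p 0.460). Among longer clusters, that of Rpl17 differed by 0.97 (limma p 0.00137). None of the clusters in these 3 lists passed the adjusted threshold.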

How the data were processed

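The authors deposited log2 signals, given to 2 decimals, of 33793 transcript clusters on 4 Affymetrix mouse gene arrays. The submitters' processing notes name Affymetrix Expression Console and RMA. The authors' own ratios, fold changes and p-values in the same table were not used. No genome build is named for the cluster coordinates, which are printed as the table gives them. RNA was prepared with a whole-transcript labelling kit, so a cluster inside an intron reads any RNA that holds its sequence.

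Genotypes were compared in limma 3.58.1 (R 4.3.3) by lmFit and eBayes on all 4 arrays, two-sided, with no other term, and p-values were adjusted over the 33793 clusters by Benjamini-Hochberg. The prior SD was 0.125 with 3.79 degrees of freedom. The 367 pairs of a snoRNA and a host on the same strand had a fit of their own (prior SD 0.283, 9.75 degrees of freedom). The number of arrays limits the precision. The labels do not tie arrays to animals, so p-values measure the spread between these samples. Same-numbered arrays did not deviate together (r = 0.0516), and the replicate number was used only as an alternative block.

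Named in full were Gas5, hosts with an unadjusted p below 0.05 or with at least 3 nested snoRNAs, nested snoRNAs with an unadjusted p below 0.05 and the extremes of each such host. Members, gene lists and tests were chosen with earlier results of these data known. As alternatives, other normalizations (median centring, quantile, cyclic loess), a signal filter, removal of clusters that can cross-hybridize (14.7%), the block, limma-trend, robust eBayes, a pooled-variance test, other overlap rules, 1 value per gene and omission of each array were run. Adding hosts under older symbols and dropping the short Snhg11 cluster were chosen after seeing the data. The fits were tested on simulated data. Promoter sequences are from RefSeq (GRCm38.p6). Python 3.11.15 and pandas 2.3.3 were used.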

Additional observations from a re-analysis of the deposited data

How the results depend on the processing

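No host or nested snoRNA cluster passed the adjusted threshold under any setting run. The count of hosts at an unadjusted p below 0.05, 1 as reported, was 2 with quantile normalization, cyclic loess, the replicate block, limma-trend or hosts under older symbols added, and 0 with the pooled-variance test. The count of nested snoRNAs, 8, was 4 without clusters that can cross-hybridize (6 left), 2 with the pooled-variance test and 4 to 8 without single arrays. The adjusted count of pairs, 1, was 4 with cyclic loess, and 0 with the replicate block, limma-trend, the pooled-variance test and pairs on either strand. It was also 0 with the signal filter, but Snora16a and Snhg12 were not among the 9 pairs left there. The unadjusted count of pairs, 6, was 3 without clusters that can cross-hybridize, 7 with cyclic loess and 4 with the pooled-variance test. By the pooled-variance test the pairs of Snora17, Snora73b and Snord22 lost their calls and that of the unnamed RNA gained one. Over all clusters, 2009 at the unadjusted threshold became 992 with the signal filter (16911 tested) and 1221 to 1801 without single arrays, and 0 adjusted calls became 15 with the pooled-variance test. The median of nested snoRNAs, 0.41, ranged from 0.29 to 0.77 and that of hosts, 0.07, from -0.01 to 0.14 without single arrays.

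Signs turned only where an array was left out. Without wild-type replicate 1 this held for Snora44 (range over the 4 omissions -0.01 to 0.34) and Snora44 minus Snhg12 (-0.17 to 0.35). Without wild-type replicate 2 it held for Snhg7 (-0.01 to 0.18), Snhg12 (-0.02 to 0.17) and Snhg5 (-0.05 to 0.14), without Adar2-/- replicate 1 for Snhg10 (-0.07 to 0.17), and without Adar2-/- replicate 2 for Snhg6 (-0.07 to 0.01). The short Snhg11 cluster (-0.18 to 0.34) turned without wild-type replicate 1 or Adar2-/- replicate 2. Snord47 (-0.42 to 0.23), Snora78 (-0.16 to 0.12), Snord99 (-0.30 to 0.20) and Snord99 minus Snhg12 (-0.47 to 0.23) turned without either replicate 2. In these fits the lone array is assumed to vary like the other group. With the replicate number as a block, the pair of Snora16a and Snhg12 had an unadjusted limma p of 0.00267, that of Snord22 and Snhg1 0.137, Snhg4 0.0435 and Snora43 0.0548, the unadjusted count of pairs was 5, and 0 adjusted calls were left. For each of these changes the cause was not tested. Signals near those of Y-linked genes, as for Gas5 in wild type, limit what a fold can show.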

Other observations

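Some hosts are listed on the array under older symbols and were matched through RefSeq after the data were seen. These were 7 clusters of 5 genes, Snhg15, Snhg16, Snhg17, Snhg18 and Snhg20, with differences from -0.23 to 0.57 and a median of 0.03. Snhg15 (listed as Gm11974) read 5.73 and 5.62 in wild type and 5.49 and 5.39 in Adar2-/- brains, without overlap, a difference of -0.23 (SE 0.110, limma p 0.0778). Snhg16, Snhg18 and Snhg20 differed by -0.02, -0.15 and 0.17, with overlapping groups. The long cluster of Snhg17 differed by 0.03, and 2 clusters of 131 and 132 bases that carry its symbol and can cross-hybridize differed by 0.57 and 0.52. Of these 7 clusters, only that of 132 bases had an unadjusted limma p below 0.05, at 0.0399, where 3.64% of all clusters were higher. It read 7.73 and 8.20 in wild type and 8.32 and 8.64 in Adar2-/- brains.

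Other small clusters also lie inside the hosts. Mir1949, a microRNA precursor within Snhg4, read 6.63 and 6.72 in wild type and 6.46 and 6.13 in Adar2-/- brains, a difference of -0.38 (SE 0.142, limma p 0.0383, adjusted p 0.834), while Snhg4 and Snora74a of the same locus differed by 0.28 and 0.60. A pair of unnamed clusters of 72 bases within Snhg5 differed by 0.06 and 0.02. On all 4 arrays Snord47 of Gas5 and Snord99 of Snhg12 had the same order, with wild-type replicate 2 highest, then Adar2-/- replicate 1, wild-type replicate 1 and Adar2-/- replicate 2. This order separates no genotype, and the probes of both can cross-hybridize.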
